A study of Homo sapiens with 6 samples.

Results

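The short arm of chromosome 1 (1p) was followed in BE(2)-C neuroblastoma cells through the promoters that the study listed there. Members were all rows of the authors' 2 promoter tables, 1 for promoters bound by N-Myc and 1 for those not bound, whose transcription start site (TSS) lay on chromosome 1 below 121500000 on the hg19 build. They numbered 548 of 9585 promoters in all, 201 N-Myc-binding and 347 non-binding. The distal segment, from the tip to 40 Mb, held 228 of them and the rest of the arm 320, and 461 promoters of the long arm (1q) served as the comparison. BE(2)-C is an established, MYCN-amplified human line and a clonal subline, so every library describes 1 clone. Cells in serum-containing medium received control siRNA or WDR5 siRNA-1 for 24 hours. Chromatin was then immunoprecipitated for H3K4me3 (histone H3 trimethylated at lysine 4), or with normal rabbit IgG, or kept as input. Each of the 6 groups was 1 library, so no value has a replicate error and no test across replicates exists.

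WDR5 is a shared subunit of the COMPASS-type complexes that methylate H3K4, and H3K4me3 marks the nucleosomes around active, mostly CpG-rich, promoters. N-Myc, the product of MYCN, binds E-boxes, of which CACGTG is the canonical form, together with its partner MAX. Loss of the distal short arm of chromosome 1 is a recurrent lesion of MYCN-amplified neuroblastoma, and the region holds several candidate tumour suppressor genes. Copy number along the arm was not analysed here.

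Sequences of N-Myc-binding 1p promoters are shown first because the canonical E-box is a motif that N-Myc binds. Each runs from 250 bases before to 20 bases after the RefSeq start on GRCh38.p14, 5′ to 3′ on the gene's strand, and the capitals mark CACGTG. The first set has promoters whose gene had a peak in both libraries and an E-box before the start. RBM15 encodes an RNA-binding protein of the m6A writer, SRM spermidine synthase, AMPD2 an AMP deaminase and SDF4 a calcium-binding protein of the Golgi. Their positions are chr1:110339127-110339396 on the plus strand for RBM15, chr1:11059999-11060268 on the minus strand for SRM, chr1:109619587-109619856 on the plus strand for AMPD2, chr1:1231982-1232251 on the minus strand for SDF4. These were the first of this kind by row of the table, a choice made after the sequences had been seen.
RBM15: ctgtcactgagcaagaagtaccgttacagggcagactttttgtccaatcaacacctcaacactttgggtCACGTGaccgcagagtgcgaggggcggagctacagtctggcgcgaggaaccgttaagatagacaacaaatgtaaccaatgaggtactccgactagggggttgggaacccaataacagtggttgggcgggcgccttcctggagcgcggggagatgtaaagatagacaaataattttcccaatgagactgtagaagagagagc
SRM: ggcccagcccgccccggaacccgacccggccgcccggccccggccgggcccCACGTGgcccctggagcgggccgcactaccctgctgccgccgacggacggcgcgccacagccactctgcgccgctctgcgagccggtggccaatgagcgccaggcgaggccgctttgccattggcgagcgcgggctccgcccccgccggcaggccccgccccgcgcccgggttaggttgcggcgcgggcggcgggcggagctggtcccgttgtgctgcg
AMPD2: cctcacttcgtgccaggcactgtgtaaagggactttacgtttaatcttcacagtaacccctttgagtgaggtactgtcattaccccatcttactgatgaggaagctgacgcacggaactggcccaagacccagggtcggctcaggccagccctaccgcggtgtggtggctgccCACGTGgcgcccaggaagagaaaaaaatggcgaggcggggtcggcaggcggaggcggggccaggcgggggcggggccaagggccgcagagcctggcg
SDF4: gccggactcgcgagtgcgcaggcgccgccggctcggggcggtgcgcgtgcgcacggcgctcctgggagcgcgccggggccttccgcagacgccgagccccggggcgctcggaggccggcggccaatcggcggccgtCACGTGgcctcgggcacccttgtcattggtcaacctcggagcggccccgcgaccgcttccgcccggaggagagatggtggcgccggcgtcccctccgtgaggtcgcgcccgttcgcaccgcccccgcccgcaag

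The second set has the N-Myc-binding promoters whose gene had a peak with control siRNA only. Of 6 such promoters, 4 had a RefSeq start at the spacing of the listed TSS. MAD2L2 encodes a subunit of the translesion polymerase zeta, SLC30A2 a zinc transporter, HOOK1 an adaptor of cytoplasmic dynein and SYPL2 a synaptophysin-like membrane protein. Their positions are chr1:11691540-11691809 on the minus strand for MAD2L2, chr1:26046099-26046368 on the minus strand for SLC30A2, chr1:59814699-59814968 on the plus strand for HOOK1, chr1:109466296-109466565 on the plus strand for SYPL2. The shown stretch holds the E-box in SYPL2, where it lies across the start, and in none of the other 3.
MAD2L2: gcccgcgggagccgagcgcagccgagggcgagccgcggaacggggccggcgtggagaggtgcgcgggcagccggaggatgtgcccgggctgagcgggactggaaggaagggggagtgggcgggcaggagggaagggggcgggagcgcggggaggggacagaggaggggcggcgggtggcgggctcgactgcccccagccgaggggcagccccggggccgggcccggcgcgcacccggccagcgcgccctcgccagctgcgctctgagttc
SLC30A2: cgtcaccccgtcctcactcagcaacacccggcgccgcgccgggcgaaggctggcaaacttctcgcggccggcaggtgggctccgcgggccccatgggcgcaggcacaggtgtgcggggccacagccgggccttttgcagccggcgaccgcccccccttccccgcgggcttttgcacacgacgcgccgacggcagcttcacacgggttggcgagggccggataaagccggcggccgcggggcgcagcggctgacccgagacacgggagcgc
HOOK1: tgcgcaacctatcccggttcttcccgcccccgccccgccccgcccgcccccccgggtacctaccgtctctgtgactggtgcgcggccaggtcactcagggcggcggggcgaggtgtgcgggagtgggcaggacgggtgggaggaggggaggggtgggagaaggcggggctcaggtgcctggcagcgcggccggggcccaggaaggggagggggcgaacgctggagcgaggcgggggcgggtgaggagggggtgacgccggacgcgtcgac
SYPL2: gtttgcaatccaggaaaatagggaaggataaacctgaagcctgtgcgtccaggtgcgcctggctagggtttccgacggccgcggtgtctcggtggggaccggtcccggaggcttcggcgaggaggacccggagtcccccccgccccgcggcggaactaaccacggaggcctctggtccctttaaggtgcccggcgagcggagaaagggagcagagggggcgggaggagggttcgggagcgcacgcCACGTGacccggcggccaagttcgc

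Most 1p promoters kept their peak call after WDR5 siRNA. The deposited lists name genes with an H3K4me3 peak within 1 kb of the TSS, and members were joined to them by gene name. With control siRNA 402 of 548 1p promoters were listed (73.4%, exact 95% interval over promoters 69.4 to 77.0%), against 70.5% of all promoters of both tables. With WDR5 siRNA 362 were listed (66.1%, interval 61.9 to 70.0%), against 62.8% of all. Listed in both were 361, and 145 were in neither list. Control-only promoters, listed with control siRNA and missing with WDR5 siRNA, numbered 41 of 402 (10.2%, interval 7.42 to 13.6%), which is near the 11.6% of all promoters with a control peak. A single promoter, 1 of 146 without a control peak, was listed only with WDR5 siRNA, against 1.35% of all such promoters. The intervals treat promoters as independent draws and cover counting error only. No peak height or read number came with the lists, so the depth is unknown and a missing name is a missing call.

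**Figure D1:**
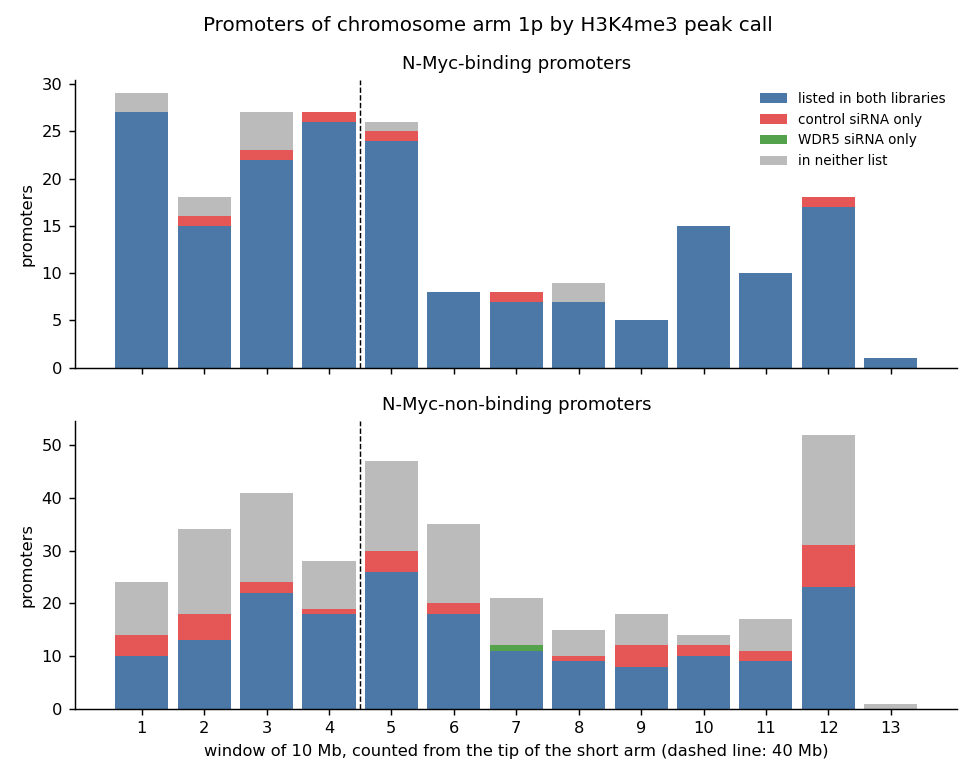
Number of 1p promoters (vertical axis) in windows of 10 Mb counted from the tip of the arm (horizontal axis), for N-Myc-binding (top) and non-binding promoters (bottom), with bars divided by the peak call in the control and WDR5 siRNA libraries. Control-only promoters are 6 in the upper panel and 35 in the lower one, and they are spread along the arm.

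The calls differed between the N-Myc classes in each segment of the arm. Among N-Myc-binding promoters 190 of 201 had a control peak (94.5%, against 94.9% of the whole table) and 184 a peak with WDR5 siRNA (91.5%, against 91.0%). Among non-binding promoters 212 of 347 had a control peak (61.1%, against 58.0% of the whole table) and 178 a peak with WDR5 siRNA (51.3%, against 48.2%). In the binding class, 6 of the 190 with a control peak were control-only (3.16%, interval 1.17 to 6.75%), where the percentage was 4.18% in the whole table. In the non-binding class, 35 of the 212 were (16.5%, interval 11.8 to 22.2%), where it was 17.9% in the whole table. The class difference on 1p was 13.4 percentage points (Newcombe interval 7.70 to 19.2). It was 12.8 points in the distal segment (3.96 to 22.9), 13.7 points in the rest of the arm (5.96 to 21.1) and 13.8 points on 1q (6.76 to 20.8). With all promoters as the denominator it fell to 7.10 points on 1p. No N-Myc-binding 1p promoter was listed only with WDR5 siRNA, and the exact interval of 0 of 201 reaches 1.82%. Among the 11 binding promoters of 1p without a control peak the exact interval of that share reaches 28.5%, beside 2.40% in the whole table. Among non-binding promoters without one it was 1 of 135 on 1p, beside 1.28% in the whole table.

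The distal 40 Mb and the rest of the arm lost calls at shares that these numbers cannot tell apart. In the distal segment 15 of 168 control peaks were control-only (8.93%, interval 5.08 to 14.3%), against 26 of 234 in the rest of the arm (11.1%, interval 7.39 to 15.9%). The difference of -2.18 points has an interval from -7.99 to 4.11. On 1q 33 of 290 were control-only (11.4%), which differed from the distal segment by -2.45 points (-7.86 to 3.70). Within the binding class the shares were 3.23% of 93 in the distal segment, 3.09% of 97 in the rest of the arm and 3.82% of 131 on 1q. Within the non-binding class they were 16.0% of 75, 16.8% of 137 and 17.6% of 159. Each of these within-class differences had an interval that included 0. The listed promoters on either side of the 40 Mb limit were BMP8A (position 39957318), which encodes a bone morphogenetic protein, and PABPC4 (position 40042521), which encodes a cytoplasmic poly(A)-binding protein, both listed in both libraries. The last 1p promoter was NOTCH2 (position 120612317), a receptor of the Notch pathway, also listed in both.

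The segments did differ in their mix of N-Myc classes. The binding table held 101 of 228 distal promoters (44.3%, interval 37.7 to 51.0%), against 33.9% of all promoters. In the rest of the arm it held 100 of 320 (31.3%, interval 26.2 to 36.6%) and on 1q 136 of 461 (29.5%, interval 25.4 to 33.9%). The distal segment exceeded the rest of the arm by 13.05 points (4.83 to 21.1) and 1q by 14.8 points (7.16 to 22.4). By windows of 10 Mb the binding share was highest in the first, with 29 of 53 promoters (54.7%), and in the tenth, with 15 of 29 (51.7%). It was lowest in the sixth, with 8 of 43 (18.6%). Listed promoters were also denser in the distal segment, at 5.84 per Mb against 3.97 in the rest of the arm and 4.43 on 1q.

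The long arm had fewer promoters with a peak. On 1q 290 of 461 promoters had a control peak (62.9%, interval 58.3 to 67.3%), 10.5 points below 1p (4.69 to 16.2). In the non-binding class 1p exceeded 1q by 12.2 points (4.65 to 19.5). In the binding class the difference was -1.80 points, with an interval from -6.37 to 3.42, and whether the classes differed in this gap was not tested. Against all other chromosomes the share of 1p differed by 2.58 points (-1.39 to 6.24).

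**Figure D2:**
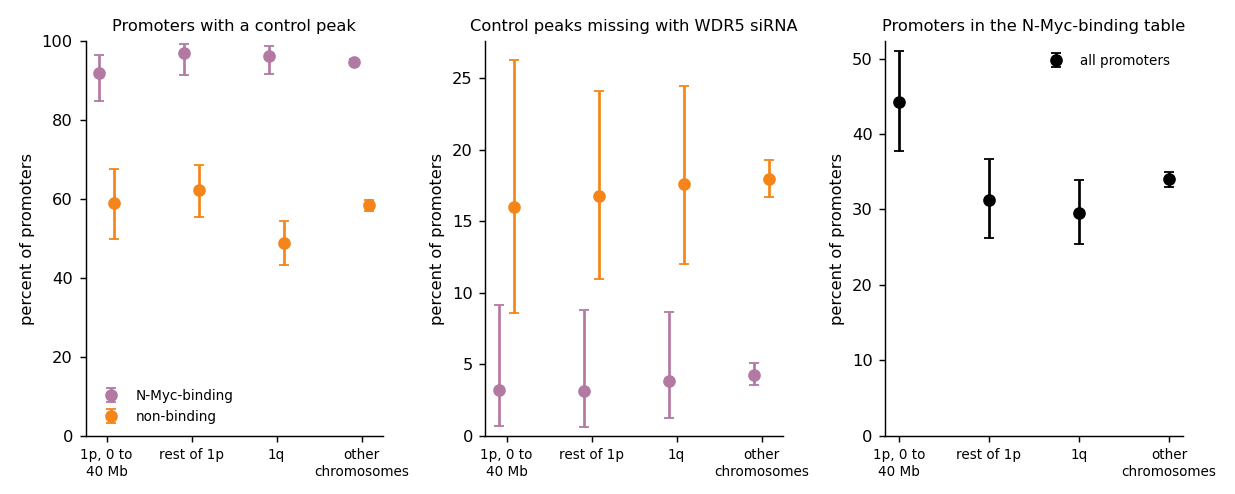
Percent of promoters (vertical axes) with a control peak, with the control peak missing after WDR5 siRNA, and in the N-Myc-binding table, for the distal 40 Mb of 1p, the rest of 1p, 1q and the other chromosomes (horizontal axes). Points are shares and bars exact 95% intervals over promoters; colours are the N-Myc classes in the left and middle panels, and the right panel shows 44.3% for the distal segment against 31.3% for the rest of the arm.

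The 6 control-only N-Myc-binding promoters were scattered, 3 in the distal segment and 3 beyond it. They were MAD2L2 (position 11751678), SLC30A2 (26372604), FABP3 (31845923), which encodes the heart-type fatty acid-binding protein, IPP (46216485), which encodes a kelch-repeat protein, HOOK1 (60280533) and SYPL2 (110009100). The binding table carries an order of rows that its header does not explain, and all 6 stood between rows 2939 and 3080 of its 3254. A further 11 binding promoters were in neither list, between rows 3050 and 3226. They were chosen for naming after their calls were seen and were KCNAB2, ESPN, PRDM2, UQCRHL, RPS6KA1, SMPDL3B, XKR8 and PHACTR4 in the distal segment, and SLC6A9, MSH4 and DNAJB4 beyond it. None of the 145 unlisted 1p names had an older or newer name in the peak lists that was not also another gene's symbol.

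Of the 35 control-only non-binding promoters, 12 lay in the distal segment. From the tip inward these were ISG15 and AGRN, neighbours 6.66 kb apart that encode an interferon-induced ubiquitin-like protein and the proteoglycan agrin, then PRDM16, PLEKHG5, DHRS3, AGMAT, CROCC, PADI2, IGSF21, RUNX3, MED18 and DNALI1. CROCC encodes rootletin of the ciliary rootlet, DNALI1 an axonemal dynein chain, DHRS3 a retinal reductase and MED18 a Mediator subunit. The other 23 lay beyond 40 Mb. They included 1 run of 3 consecutive control-only promoters among those with a control peak, MCOLN2, MCOLN3 and WDR63, which span 65.2 kb. MCOLN2 and MCOLN3 encode mucolipin channels of endosomes and lysosomes, and WDR63 an axonemal dynein chain. KCNA2 and KCNA3, neighbouring genes of voltage-gated potassium channels 68.7 kb apart, were both control-only. Others were HPCAL4, MMACHC, TAL1, DMRTA2, ACOT11, PTGFR, CYR61, GFI1, ALG14, VAV3, PPM1J, SYT6, TSPAN2, PTGFRN, TRIM45 and SPAG17. In the first 2 windows, the distal 20 Mb, 4 of 14 and 5 of 18 non-binding control peaks were control-only. In windows 3 and 4 the numbers were 2 of 24 and 1 of 19. Windows 5 to 8 had 4 of 30, 2 of 20, 0 of 11 and 1 of 10. The ninth window had 4 of 12, the tenth 2 of 12, the eleventh 2 of 11 and the twelfth 8 of 31. Beside these counts stand 16.5% of the non-binding control peaks of 1p and 17.9% of the whole table. Differences between windows were not tested. SGIP1 (position 66999825), which encodes an endocytic adaptor of neurons, was the only 1p promoter listed with WDR5 siRNA alone.

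Candidate suppressor genes of distal 1p were mostly listed in both libraries. Of 18 list members among the promoters, 15 had a control peak, and 13 of these were listed in both, against 361 of 402 for the arm. These 13 included DFFB and DFFA, the nuclease of apoptosis and its inhibitor, TP73, a p53 relative, CAMTA1, a transcription factor, KIF1B, a kinesin that carries mitochondria and synaptic vesicle precursors, and ARID1A, the DNA-binding subunit of the BAF remodelling complex. CAMTA1 (position 6845384) and ARID1A (position 27022522) were N-Myc-binding. TP73 (position 3569129) and KIF1B (position 10270764) were non-binding. The control-only members were RUNX3 (position 25256770), a RUNX-family transcription factor, and PRDM16 (position 2985742), a zinc finger regulator of brown fat and stem cells. PIK3CD, PRDM2 and PAX7 were in neither list. Outside the promoter tables, CHD5, a neuronal chromatin remodeller, was control-only in the peak lists, CASZ1, a zinc finger factor, was listed in both, and the name MIR34A was in neither. MYCL1 and PHGDH, outside the tables too, were listed in both.

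Gene lists of ribosomes, splicing, metabolism, the cell cycle and chromatin held at most 1 control-only promoter each, beside 10.2% of 1p and 11.6% of all control peaks. N-Myc-binding promoters made up 19 of 23, 12 of 18, 18 of 39, 22 of 28 and 14 of 20 of these lists in turn, a class with 3.16% control-only on the arm. The part of the class in these counts was not tested. The list of ribosomal proteins, ribosome production and translation had 22 genes with a control peak, and all 22 were in both lists, such as MRPL20, RPL22, NOL9, EIF4G3, RPL11 and SRM, the last a polyamine enzyme. RPS6KA1, a kinase of the list, was in neither. All 18 genes of RNA splicing and processing were listed in both, for example SFPQ, THRAP3, KHDRBS1 and PNRC2. The same held for all 32 control-peak genes of mitochondria and metabolism, among them PARK7, ENO1, H6PD and NMNAT1, while 7 others were in neither list. For cell cycle, replication and repair 26 of 27 control-peak genes were in both lists, among them CCNL2, STMN1, RPA2 and RCC1, and MAD2L2 was the exception. SNX7, CLCC1 and WARS2 are counted here as the list has them, and WARS2 also stood in the translation list. Their membership does not show a role in the cell cycle. Chromatin regulators had 17 of 18 listed in both, such as HDAC1, RBBP4 and HP1BP3, and PRDM16 was the exception. A list drawn up under the name MYC network had 4 members on the arm, ZBTB17, PPIE, TRIT1 and MTF2, all listed in both. MTF2 also stood among the chromatin regulators, and membership of the list does not show that a gene acts with MYC. A call in both libraries does not show that the level of H3K4me3 was unchanged.

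Control-only promoters were found among the developmental regulators, neuronal genes and signalling genes of the arm. Of 30 developmental transcription factor genes on the arm, 19 had a control peak (63.3%), and 5 of the 19 were control-only (26.3%, beside 10.2% for the arm). These were PRDM16, RUNX3, TAL1, DMRTA2 and GFI1, of which TAL1 and GFI1 are regulators of blood formation. TP73, CAMTA1, ZBTB40, ZNF436, ZNF593 and ZFP69 were listed in both. Of 43 neuronal, synaptic and channel genes, 33 had a control peak and 7 were control-only (21.2%). They included AGRN, HPCAL4, a calcium sensor, KCNA2 and KCNA3, potassium channel subunits, and SYT6, a synaptotagmin. GNB1, CLSTN1, KIF1B, HTR6, CAMK2N1 and STMN1 were listed in both. Only 4 of the 30 transcription factor promoters and 7 of the 43 neuronal ones were N-Myc-binding, against 201 of 548 on the arm. Class and list thus move together, and the part of the class in these shares was not tested. The list of signalling receptors and ligands also held intracellular proteins and the retinal reductase DHRS3. It had 3 control-only members of 26 with a control peak (11.5%), DHRS3, CYR61 and VAV3, beside members such as ERRFI1, WNT4, EPHB2 and NOTCH2 in both.

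Of the 3 lists of markers of other cell types on 1p, those of blood and of epithelium, liver, pancreas and muscle were seldom listed. With control siRNA 24.0% of the first and 6.25% of the second had a peak, beside 73.4% for the arm, and 52.9% of the matrix, mesenchymal and endothelial markers did. Of 25 blood and immune markers on 1p, 19 were in neither list, among them C1QA, CD2, CD53 and LAPTM5. Of the 6 with a control peak, PADI2, RUNX3, TAL1 and VAV3 were control-only, and EPB41 and SPATA6 were listed in both. SPATA6 is counted here as the list has it and is not specific to blood. FABP3, control-only, was the exception among 16 markers of epithelium, liver, pancreas and muscle, of which 15 went unlisted. Of 17 matrix, mesenchymal and endothelial markers, 8 were listed in both, such as F3 and TGFBR3, 8 were in neither and CYR61 was control-only. Across the genome, 23 of 25 neuroblastoma lineage markers had a control peak, beside 70.5% of all promoters of both tables. Of these, 19 were listed in both, HAND2, GATA3 and MYCN among them. The other 4 were control-only (17.4%, beside 11.6% of all control peaks of both tables), SOX11, TH, DBH and DDC. STMN4 and the 1p gene ELAVL4 were in neither list. Of 25 markers of other cell types 22 were unlisted, including PTPRC, EPCAM, CDH1 and ALB, beside 29.1% of all promoters of both tables. KRT18, COL1A1 and PDGFRB were control-only.

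Peak calls on the arm followed the unexplained order of the promoter tables, as they did on other chromosomes. Both tables are titled as H3K4me3 quantification, so the order may come from the same libraries as the calls. The match is therefore no independent support for the calls. On other chromosomes the median rows of binding promoters listed in both, control-only and in neither list were 44.8%, 89.7% and 97.0% of the table length. On 1p they were 56.9%, 92.9% and 95.9%. For non-binding promoters the medians were 23.5%, 51.5% and 78.3% on other chromosomes and 33.1%, 52.4% and 76.0% on 1p. Of the 173 1p promoters in the first 90% of rows of the binding table, 173 were listed in both libraries. The 28 in the last 10% comprised 11 listed in both, 6 control-only and 11 in neither list. In the non-binding table all 77 1p promoters in the first 30% of rows were listed in both. Beyond 60% of the rows stood 125, of which 122 were in neither list. Among the others there were the control-only promoters DNALI1 (62.2% of the table length) and TAL1 (91.4%). The first 5 1p rows of the binding table were MRPL20 (row 6), SSU72 (row 27), CCNL2 (row 34), AURKAIP1 (row 46) and RBM15 (row 53), of which the first 4 lie between positions 1310562 and 1510262. The last 5 were SLC6A9, PHACTR4, KCNAB2 and DNAJB4, all unlisted, and RABGGTB (row 3249), listed in both. In the non-binding table MAGI3 (row 16), CDC14A, MOV10, CPSF3L and C1orf50 came first. Among its last 5 were REG4, AMY2A, VCAM1 and TSHB, all unlisted. SGIP1 stood at 59.3% of the non-binding table, whereas the 2 promoters of 1q listed only with WDR5 siRNA stood at 97.6% and 99.8%.

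**Figure D3:**
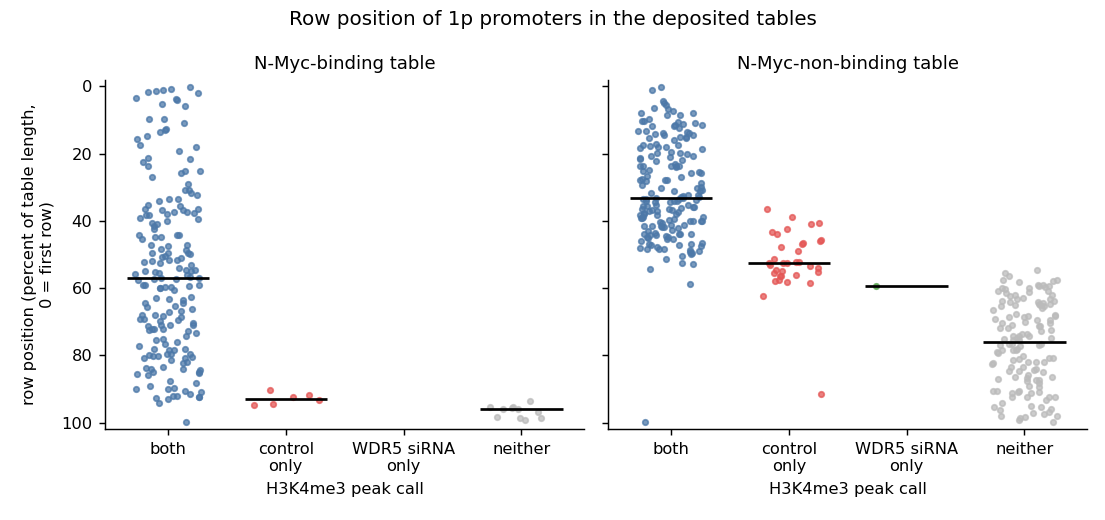
Row position of each 1p promoter as percent of the length of its table (vertical axis, first row at the top) by peak call (horizontal axis), for the N-Myc-binding (left) and non-binding table (right). Points are promoters, spread sideways for clarity, and lines are medians: 56.9% for both and 92.9% for control-only on the left, 33.1% and 52.4% on the right.

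Among promoters listed in both libraries, those of 1p stood later in both tables than those of 1q. Over all calls this held in the binding table, with medians of 59.6% on 1p and 42.8% on 1q, and not in the non-binding table, with 48.1% on 1p and 59.2% on 1q. For promoters listed in both, the median row of the non-binding table was 33.1% of its length on 1p (177 promoters), 19.3% on 1q (131) and 23.5% on the other chromosomes (2711). The 1p median was the latest of 24 chromosomes or arms with at least 26 such promoters, while over all calls 1p came at place 10 and 1q at place 22. Close to 1p stood chromosomes X (32.8%), 18 (31.5%) and 11 (30.4%), and 1q came at place 7 among promoters listed in both. In the binding table the medians were 56.9% on 1p (184 promoters), 40.8% on 1q (126) and 44.8% elsewhere (2648), and 1p came at place 20 of 24. The first 25% of rows of the binding table held 26 of 184 such 1p promoters (14.1%, interval 9.44 to 20.02%), against 38.1% on 1q and 27.9% elsewhere. The difference from 1q was -24.0 points (-33.7 to -14.1) and that from other chromosomes -13.8 points (-18.4 to -7.77). In the non-binding table the share was 63 of 177 (35.6%, interval 28.6 to 43.1%), against 57.3% on 1q and 53.2% elsewhere. There the differences were -21.7 points (-32.2 to -10.4) and -17.6 points (-24.6 to -10.1). Over all calls the difference of non-binding promoters from 1q was -4.92 points (-11.0 to 1.19), an interval that includes 0, and that from other chromosomes -7.36 points (-11.2 to -2.82). Although both tables are titled as H3K4me3 quantification, no source used here says what the row order stands for. Whether it came from the same libraries as the calls is not known.

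Row positions of the distal segment and the rest of the arm differed by amounts whose intervals included 0. In the non-binding table the first 25% of rows held 28.6% of 63 distal promoters listed in both and 39.5% of 114 in the rest of the arm, a difference of -10.9 points (-24.2 to 3.90). In the binding table the shares were 16.7% of 90 and 11.7% of 94, a difference of 4.96 points (-5.26 to 15.3). Along the arm, the median row of non-binding promoters listed in both was 18.7% in the first window of 10 Mb and between 30.8% and 39.6% in windows 2 to 9. It was 20.4%, 20.98% and 15.3% in windows 10 to 12. For binding promoters it was 39.5% in the first window and 25.2% in the twelfth, and between 45.3% and 92.2% in windows 2 to 11. Windows 1 to 12 each held 5 to 27 such promoters of a class. Input and IgG values along the arm were not analysed here.

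**Figure D4:**
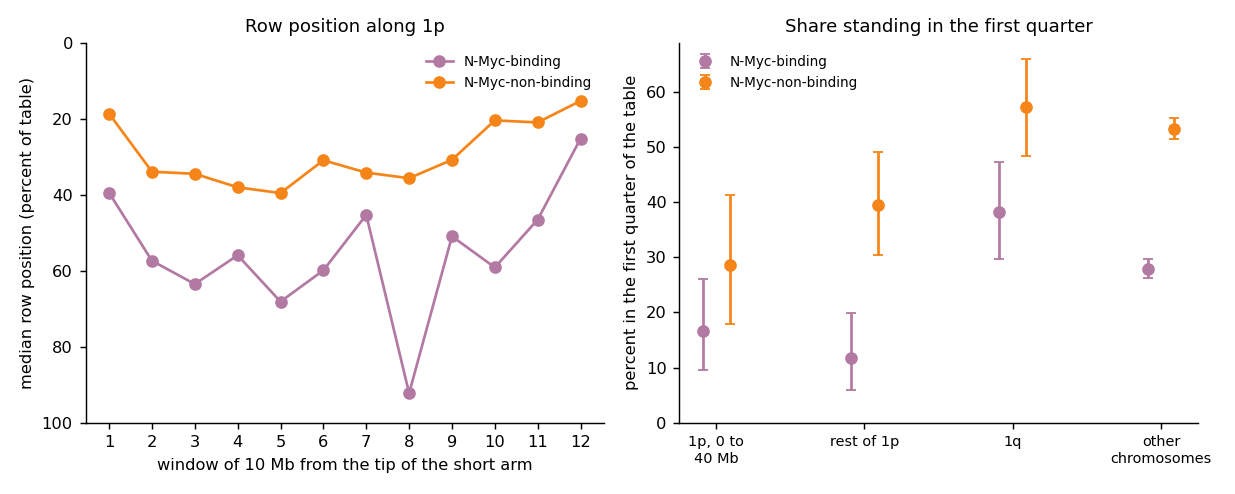
Left, median row position (percent of table length, first row at the top) of 1p promoters listed in both libraries by window of 10 Mb from the tip of the arm, for windows with at least 5 promoters of the class; right, percent of such promoters in the first 25% of rows with exact 95% intervals, by segment. Purple is the N-Myc-binding and orange the non-binding table; 1p lies at 14.1% and 35.6% over both segments, against 38.1% and 57.3% on 1q.

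Closely paired promoters of 1p shared their call. Neighbouring TSSs within 1 kb formed 17 pairs, from 35 to 897 bases apart, and in 17 of them both promoters were listed in both libraries. Of all 548 1p promoters 65.9% were listed in both, and the calls of the 10 such pairs on 1q were not compared. The 2 promoters of every pair stood in the same table, the binding one for 14 pairs, such as SDF4 with B3GALT6, TMED5 with CCDC18 and GDAP2 with WDR3. Pairs within 1 kb can share 1 peak, and which peak gave a name its call is not recorded in the lists. No control-only or unlisted promoter stood in such a pair.

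Base composition near the start differed with the peak call. RefSeq promoter windows of 300 bases (250 before and 50 after the start, GRCh38.p14) had a matching name for 471 of 548 1p promoters. In 344 the spacing to neighbouring genes placed the start within 100 bases of the listed TSS, and these were used. The median number of CpG dinucleotides was 28 in promoters listed in both, 25 in the 27 control-only ones and 5 in the 87 unlisted ones. Among promoters listed in both it was 28 in either class. The median GC content was 67.0%, 66.3% and 54.3% for these calls in turn. On 1q the median CpG numbers were 26, 23 and 3. Control-only promoters of 1p were thus close to those listed in both in base composition.

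The canonical E-box CACGTG, a palindrome that reads alike on both strands, was more frequent in the binding class when all calls were pooled. It occurred in 24 of 132 N-Myc-binding windows of 1p (18.2%, interval 12.01 to 25.8%) and in 17 of the 212 windows of the other class (8.02%, interval 4.74 to 12.5%), a difference of 10.2 points (2.97 to 18.2). Over all promoters of both tables the shares were 15.3% of 1813 and 5.60% of 3126, and 7.26% of all RefSeq windows held the motif. The distal segment had 15 of 72 binding windows with the motif (20.8%) and the rest of the arm 9 of 60 (15.0%), with overlapping intervals of 12.2 to 32.0% and 7.10 to 26.6%. Among non-binding promoters of 1p, 12 of 107 listed in both and 0 of 23 control-only held it, and the exact interval of the latter share reaches 14.8%. Over all non-binding windows the shares were 7.23% of 1549 listed in both and 5.50% of 291 control-only. In the binding class of 1p, 23 of 122 listed in both and 1 of 4 control-only held it. Among 1p promoters listed in both, the binding share was 18.9% (12.3 to 26.9%). The non-binding share was 11.2% (5.93 to 18.8%), and these intervals overlap. Over both tables the shares among promoters listed in both were 15.5% of 1673 and 7.23% of 1549. Unlisted promoters, poorer in CpG, made up 81 of the 212 non-binding windows of 1p and 6 of the 132 binding ones. Most N-Myc-binding windows, such as those of MAD2L2 and HOOK1 printed above, thus held no CACGTG, and a match describes the letters of the window only.

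**Figure D5:**
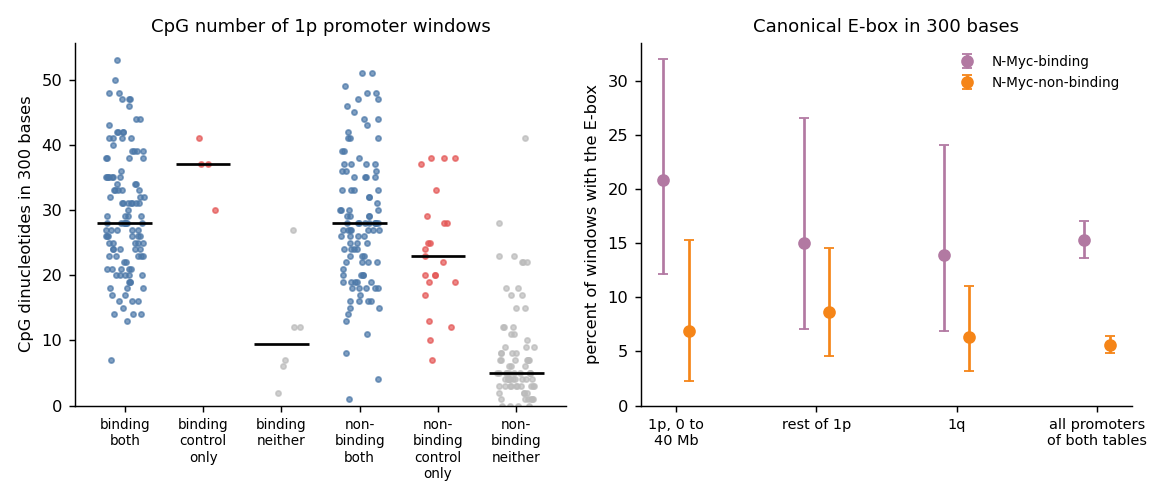
Left, CpG dinucleotides in the 300-base RefSeq window (vertical axis) of each 1p promoter by N-Myc class and peak call (horizontal axis), with medians as lines. Right, percent of windows with the canonical E-box by segment, with exact 95% intervals; on 1p as a whole 18.2% of binding and 8.02% of non-binding windows held it.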

How the data were processed

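H3K4me3, IgG and input ChIP libraries came from 6 samples, 1 per group, assigned by title. The submitters' processing notes name hg19 as genome build, with BWA 0.7.12 and bedtools. No source used here gives the peak caller, its threshold or how N-Myc binding was decided. The authors' deposited files hold gene names with a peak in each H3K4me3 library, and TSS positions with gene names, in no measured unit. Both promoter tables are titled as H3K4me3 quantification but hold no values. Depth is therefore unknown.

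Names were made distinct, joined to promoters by gene name and classed as listed in both, 1 or neither library. The second coordinate was taken as the TSS. Shares have exact (Clopper-Pearson) and differences Newcombe 95% intervals, computed from counts of promoters and tested on simulated data. Since the files held no levels, no fold change was computed. A peak at another TSS of a gene can count for the listed promoter. RefSeq windows on GRCh38.p14 were matched by symbol or unambiguous synonym, and kept where the offset from the listed TSS lay within 100 bases of the median offset of 21 neighbours. No coordinate was converted.

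The members and the gene lists were chosen with earlier results of these data known. Named genes are control-only or WDR5-siRNA-only N-Myc-binding promoters, list members listed in 1 library with up to 6 listed in both in order of position or fewer, runs of at least 3 control-only promoters, the first and last 5 rows, promoters at the limits and a set of candidate suppressors, MYCL1 and PHGDH. Other names were chosen after their calls were seen, and a few genes that the rule names are not reported here. Shares were computed with scipy 1.17.1, numpy 2.4.6 and pandas 2.3.3 under Python 3.11.15, and plots drawn with matplotlib 3.10.9.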

Additional observations from a re-analysis of the deposited data

How the results depend on the processing

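No paired analysis was possible because each group holds 1 library, which also leaves no replicate to omit. Of 37 alternatives to 8 values, 35 stayed within the interval of the reported value, among them those for the share of control-only promoters on 1p (7.48 to 13.3%). Beyond it lay the class difference in control-only share with all promoters as the denominator (7.10 points), because promoters without a control peak enter it. The share of non-binding 1p promoters in the first 25% of rows whatever their call (18.2%, chosen after the data were seen) lay beyond it too, because unlisted promoters enter it. Leaving out names of accession, LOC, LINC, MIR or SNOR style gave the reported value wherever it was tried. Keeping only names with a single row in the peak lists changed only the distal difference from 1q, to -2.53 points. Alternatives that left a value as it was are no check of its stability. The difference between the distal segment and the rest of 1p in control-only share was 0.656 points with the limit at 30 Mb and -2.76 with it at 50 Mb, and both intervals included 0. The excess of N-Myc-binding promoters in the distal segment was 8.91 points (0.233 to 17.7) with the limit at 30 Mb and 12.2 with it at 50 Mb. Depth is unknown, so weak peaks near the calling threshold cannot be told from absent ones.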

Other observations

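Names outside the promoter tables could be placed on 1p by the order of the peak lists, a step chosen after the data were seen. The control list follows genome order on chromosome 1, since 691 of 691 consecutive pairs with known positions rose. Between its start and NOTCH2 it held 783 distinct names, 381 of them in neither promoter table. Of these 381, 63 were control-only (16.5%, exact interval over names 12.9 to 20.7%), against 41 of the 402 names in the tables (10.2%). The shares were 33 of 209 (15.8%) up to BMP8A and 30 of 172 (17.4%) beyond it, and 53 of 283 on 1q (18.7%). All 291 of the 381 names that match a RefSeq symbol are on chromosome 1 there.

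The following are examples from the 63 control-only names, chosen after their calls were seen and drawn from no list. In the distal segment they were GABRD, a GABA receptor subunit, CHD5, HPCA, which encodes the calcium sensor hippocalcin, DRAXIN, an axon guidance protein, and HES3, a helix-loop-helix repressor. Beyond 40 Mb they were FOXD3, a neural crest forkhead factor, RAB3B, a GTPase of secretory vesicles, and PIK3R3, a regulatory subunit of PI3-kinase. Tissue genes such as NPPB and ALPL were control-only as well. Listed with WDR5 siRNA alone were 3 names of the arm, SGIP1 and 2 names of uncharacterised transcripts.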
